A study of Homo sapiens with 12 samples.

Results

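8 genes that encode precursors of the cornified envelope are described here in a breast cancer cell line: the small proline-rich protein genes SPRR1A, SPRR1B, SPRR2A, SPRR2D, SPRR2E and SPRR3, the proline-rich gene PRR9, and IVL, which encodes involucrin. They are 8 of the 57783 genes in the table of read counts, found by matching Ensembl identifiers to symbols. They were chosen by their biological kinship and with results of these same libraries known: their differences between EPZ5676 and DMSO and, in part, those between the populations. Of the 8 genes, 6 had enough counts to be fitted in a model across genes, and SPRR2D and SPRR2E did not. PRR9, SPRR3, SPRR1B, SPRR1A and SPRR2A were low or near the counting floor in solvent-treated cells and higher in cells given a DOT1L inhibitor. Among the inhibited cells, each ALDH1+ library lay above each ALDH1- library for these 5 genes. The share of all genes with such a separation was not counted. IVL was expressed in all 4 groups and differed less.

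The cells were MDA-MB-468, an established line of triple-negative breast cancer. One arm received the solvent DMSO and the other EPZ5676 (pinometostat) at 0.5 µM, a drug that blocks DOT1L, the enzyme that methylates a lysine in the core of histone H3, and both arms ran for 10 days. Flow sorting then split each arm into an ALDH1+ and an ALDH1- population, named for a class of aldehyde dehydrogenases whose activity is used to enrich cells with stem-cell traits. The 4 groups are called DMSO ALDH1+ and DMSO ALDH1- for the solvent arm, EPZ5676 ALDH1+ and EPZ5676 ALDH1- for the inhibitor arm, and each has 3 libraries of total RNA. The labels call the replicates biological without saying how they were separated, so p-values measure the spread between these libraries. All groups come from 1 line in culture, and the labels name no genetic change. In bulk libraries, fewer cells expressing a gene and less RNA per cell cannot be told apart.

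The cornified envelope is the tough protein shell that keratinocytes build under the plasma membrane as they mature at the surface of stratified epithelia. Involucrin is laid down early as a scaffold, SPRR proteins act as flexible bridges between other envelope proteins, and transglutaminases cross-link them into an insoluble layer. The genes lie together in the epidermal differentiation complex on chromosome 1, among the genes for filaggrin, loricrin, the late cornified envelope proteins and many S100 proteins. SPRR genes are known to respond to stress and to AP-1 transcription factors in keratinocytes, and in simple epithelia and glandular tissue they are usually low.

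The promoters of these genes are shown first, and whether they bear on the levels was not tested. RefSeq gives a promoter window of 300 bases, 250 before and 50 after the gene start, for PRR9, SPRR3, SPRR1B, SPRR1A, SPRR2A and IVL. The 250 bases before the start are printed for 4 of them, on build GRCh38.p14 and in the direction of transcription. PRR9 lies at chr1:153217334-153217583 on the plus strand, SPRR3 at chr1:153001499-153001748 on the plus strand, SPRR2A at chr1:153057513-153057762 on the minus strand and IVL at chr1:152908296-152908545 on the plus strand. Capitals mark the heptamer TGACTCA or its reverse complement TGAGTCA, the site bound by AP-1 factors, and TATAAA, the TATA box.
PRR9: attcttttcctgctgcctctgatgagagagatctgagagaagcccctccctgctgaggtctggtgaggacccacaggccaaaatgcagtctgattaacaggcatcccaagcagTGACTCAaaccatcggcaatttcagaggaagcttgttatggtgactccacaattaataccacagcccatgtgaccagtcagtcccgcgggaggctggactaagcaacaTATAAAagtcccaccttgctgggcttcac
SPRR3: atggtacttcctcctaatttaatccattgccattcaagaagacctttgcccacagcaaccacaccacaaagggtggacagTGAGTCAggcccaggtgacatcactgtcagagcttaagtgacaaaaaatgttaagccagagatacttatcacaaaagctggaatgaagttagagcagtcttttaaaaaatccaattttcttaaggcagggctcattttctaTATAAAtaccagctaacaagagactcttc
SPRR2A: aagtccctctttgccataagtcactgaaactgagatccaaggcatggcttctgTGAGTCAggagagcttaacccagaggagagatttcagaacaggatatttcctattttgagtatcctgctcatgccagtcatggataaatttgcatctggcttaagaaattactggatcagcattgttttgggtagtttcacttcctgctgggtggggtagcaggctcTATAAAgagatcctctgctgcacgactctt
IVL: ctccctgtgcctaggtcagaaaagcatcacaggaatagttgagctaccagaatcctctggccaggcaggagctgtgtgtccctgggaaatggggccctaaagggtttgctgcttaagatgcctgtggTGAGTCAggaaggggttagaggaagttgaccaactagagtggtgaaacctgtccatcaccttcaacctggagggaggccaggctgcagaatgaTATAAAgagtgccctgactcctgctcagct

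The AP-1 heptamer was present once in each of the 6 windows, SPRR1A and SPRR1B included. Its first base lay 108 bases before the start in SPRR1A, 123 in IVL, 137 in PRR9, 141 in SPRR1B, 170 in SPRR3 and 197 in SPRR2A. Over all 35116 promoters of the table, 4.95% hold it on either strand. TATAAA, searched only in the direction of transcription, lay 29 or 30 bases before the start in 5 of the 6 genes, all but SPRR1B. Of all promoters, 2.30% hold it between 20 and 40 bases before the start. Both motifs occurred together in 0.48% of all promoters. The cAMP response element TGACGTCA was in 0 of the 6 windows and in 1.85% of all promoters, and the core letters AGGAAG or CTTCCT of ETS factor sites were in 5 of the 6 and in 33.6% of all. These 4 motifs were chosen after the sequences had been seen, each search used exact letters, and a match is a description of the sequence and not a measured binding site. Among SPRR genes outside the 8, the window of SPRR2F held the AP-1 heptamer, and those of SPRR2B, SPRR2G, SPRR4 and SPRR5 did not, while TATAAA was in all 5.

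**Figure D1:**
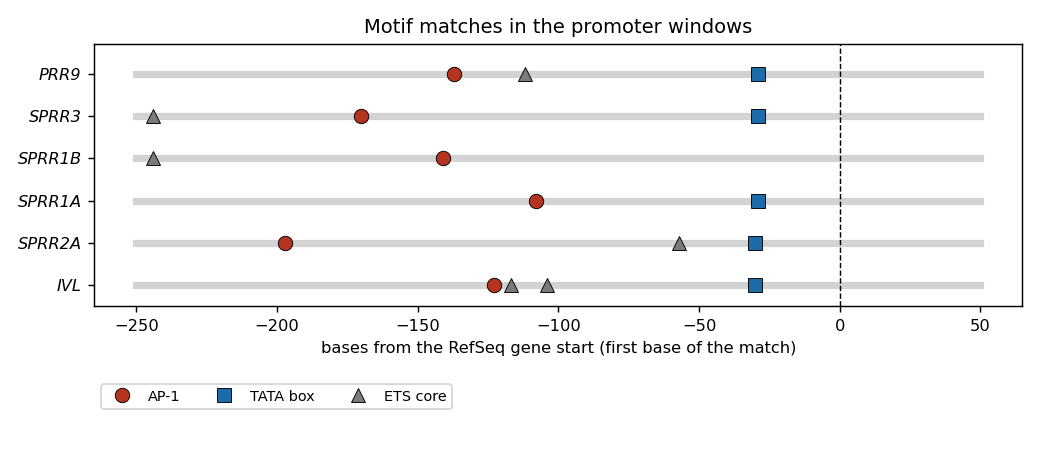
Positions of exact matches to the AP-1 heptamer (circles), TATAAA (squares) and the ETS core (triangles) in the promoter windows of 6 genes. The x axis gives bases from the RefSeq gene start to the first base of the match, and every gene has 1 circle between 108 and 197 bases before the start.

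PRR9, SPRR3 and SPRR1B were the most abundant of the SPRR and PRR genes. All 3 stood highest in EPZ5676 ALDH1+, then in EPZ5676 ALDH1-, with both DMSO groups below. Levels are in CPM, counts per 1000000 of a library total adjusted by edgeR's TMM factors, and are given for replicates 1, 2 and 3. PRR9 (ENSG00000203783.4), whose protein is predicted from its proline-rich sequence to be an envelope precursor, stood at 0.582, 1.47 and 0.602 CPM in DMSO ALDH1+ and at 0.440, 0.986 and 0.653 CPM in DMSO ALDH1-. Under EPZ5676 it stood at 51.2, 61.0 and 33.6 CPM in ALDH1+ and at 19.5, 22.9 and 24.5 CPM in ALDH1-. The DMSO groups overlapped, both EPZ5676 groups lay far above them, and each EPZ5676 ALDH1+ library lay above each EPZ5676 ALDH1- library. On the fitted log2 scale PRR9 was 5.89 (SE 0.30) higher with EPZ5676 in ALDH1+ and 4.99 (SE 0.32) higher in ALDH1-. These treatment differences, like those of the other 7 genes, were among the values by which the genes were chosen and are given as a description, with no test or call.

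SPRR3 (ENSG00000163209.10) is best known from the inner linings of the mouth and oesophagus. It stood at 0.218, 0.478 and 0.425 CPM in DMSO ALDH1+ and at 0.0733, 0.340 and 0.230 CPM in DMSO ALDH1-, where replicate 1 held 2 counts. With EPZ5676 it reached 12.3, 16.2 and 10.6 CPM in ALDH1+ and 3.63, 4.60 and 4.20 CPM in ALDH1-. As for PRR9, the DMSO groups overlapped and the EPZ5676 groups were separate from them and from each other. The log2 difference between EPZ5676 and DMSO was 5.09 (SE 0.27) in ALDH1+ and 4.23 (SE 0.34) in ALDH1-.

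SPRR1B (ENSG00000169469.7), an SPRR gene of squamous and airway epithelium, was the SPRR gene with the highest level in DMSO. Its levels were 2.98, 2.87 and 2.62 CPM in DMSO ALDH1+ and 2.05, 2.01 and 1.69 CPM in DMSO ALDH1-. They were 14.02, 13.4 and 10.3 CPM with EPZ5676 in ALDH1+ and 6.24, 5.02 and 5.75 CPM in ALDH1-. No 2 of the 4 groups overlapped, and ALDH1+ was the higher population in each arm. The treatment difference was 2.17 (SE 0.14) on the log2 scale in ALDH1+ and 1.56 (SE 0.16) in ALDH1-.

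SPRR1A (ENSG00000169474.3), the close relative of SPRR1B, was at or under 3 counts in each of the 6 DMSO libraries. In DMSO it had 1, 2 and 3 counts in ALDH1+ and 1, 1 and 0 in ALDH1-. With EPZ5676 it had 18, 75 and 14 counts in ALDH1+, or 0.685 ± 0.24 CPM (SD, n = 3), and 9, 10 and 5 counts in ALDH1-, or 0.305 ± 0.093 CPM. Here too the EPZ5676 groups lay above DMSO and did not overlap each other. Relative to library totals, the summed counts were 14.1 times as high with EPZ5676 in ALDH1+ (exact 95% interval 6.29 to 39.4) and 12.7 times as high in ALDH1- (3.15 to 111). Such intervals cover counting error only, not the spread between libraries.

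SPRR2A (ENSG00000241794.1) belongs to the SPRR2 cluster of near-identical genes, which is known to be induced in injured epithelia. With DMSO it had 0, 2 and 5 counts in ALDH1+ and 0, 3 and 4 in ALDH1-, against 50, 180 and 26 in ALDH1+ and 12, 18 and 6 in ALDH1- with EPZ5676. In CPM the EPZ5676 libraries stood at 1.78, 2.26 and 0.876 in ALDH1+ and at 0.489, 0.632 and 0.238 in ALDH1-, again without overlap. The ratio of summed counts between EPZ5676 and DMSO was 29.02 (13.9 to 72.9) in ALDH1+ and 5.44 (2.39 to 14.5) in ALDH1-. In DMSO the populations had 7 counts each.

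SPRR2D and SPRR2E, its neighbours, were near or below what the depth can show. SPRR2D (ENSG00000163216.6) had 2, 2 and 1 counts in DMSO ALDH1+, 1, 5 and 3 in DMSO ALDH1-, and with EPZ5676 10, 35 and 6 in ALDH1+ and 4, 3 and 4 in ALDH1-. EPZ5676 ALDH1+ was the only group set apart, with 8.09 times the DMSO ALDH1+ counts (3.25 to 26.0), while in ALDH1- the ratio was 1.29 (0.487 to 3.53) and the groups overlapped. SPRR2E (ENSG00000203785.4) had 9 counts in all 12 libraries together and at most 3 in any of them, so no difference was detectable at this depth. A count of 3 corresponds to 0.0376 to 0.122 CPM, depending on the library. The rows of SPRR2B and SPRR4 held 0 counts throughout, SPRR2C held 1 count, and SPRR2F and SPRR2G held 5 each.

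Members of the SPRR2 cluster share sequence, and how reads that match several of them were counted is not given in the sources used here. In GENCODE 29 transcripts, 32.7% of the 50-base windows of SPRR2A, 23.4% of those of SPRR2E and 19.3% of those of SPRR2D also occur in another SPRR2 gene. SPRR1A and SPRR1B share 25 such windows, 11.3% and 4.38% of theirs, and SPRR3, PRR9 and IVL share none with a transcript of any other gene in GENCODE 29. The split of counts among SPRR2 genes is therefore uncertain. Added together, the 7 SPRR2 rows had 0.161 ± 0.016 CPM in ALDH1+ and 0.204 ± 0.15 in ALDH1- of the DMSO arm, against 2.07 ± 0.80 and 0.619 ± 0.21 with EPZ5676 (SD, n = 3). SPRR2A held 80.5% of the summed SPRR2 counts in the EPZ5676 ALDH1+ libraries and 73.5% in the ALDH1- ones.

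IVL (ENSG00000163207.5), the early scaffold protein, had the highest DMSO level in CPM of the 8 genes. It stood at 7.60, 7.85 and 8.20 CPM in DMSO ALDH1+ and at 7.37, 5.17 and 5.45 CPM in DMSO ALDH1-. With EPZ5676 it stood at 15.4, 17.2 and 19.2 CPM in ALDH1+ and at 15.99, 16.2 and 13.2 CPM in ALDH1-. Both EPZ5676 groups lay above both DMSO groups, and under EPZ5676 the populations overlapped. The treatment difference was 1.13 (SE 0.13) on the log2 scale in ALDH1+ and 1.33 (SE 0.14) in ALDH1-.

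**Figure D2:**
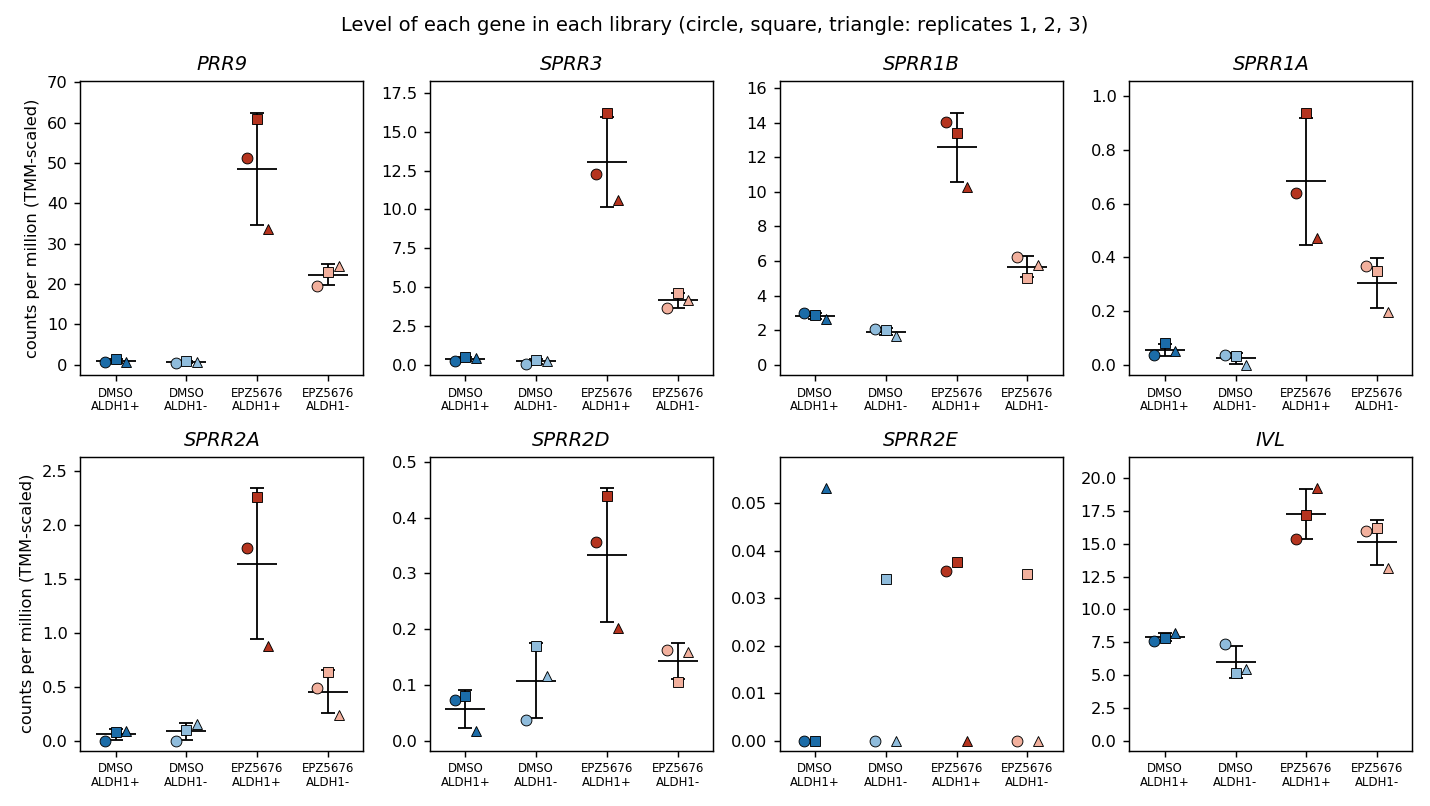
Level of each of the 8 genes in each of the 12 libraries, in TMM-scaled CPM on a linear axis that differs between panels. Points are libraries, horizontal bars the mean of 3 and whiskers 1 SD, left out for SPRR2E, which has at most 3 counts in any library. EPZ5676 ALDH1+ has the highest mean in the other 7 panels, and among these its libraries overlap those of EPZ5676 ALDH1- only for IVL.

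Over all 16327 genes tested, edgeR called 17.8% higher and 13.7% lower with EPZ5676 in ALDH1+ at an adjusted p under 0.05, and 13.6% higher and 9.04% lower in ALDH1-. No count of calls is given for the genes described here, because they were chosen with these differences known. Set by size, the fitted difference in ALDH1+ ran from 1.13 for IVL to 5.89 for PRR9. Compared per kilobase of exon (GENCODE 29 lengths, which may differ from the annotation used for counting), the mean level in EPZ5676 ALDH1+ was 39.5 CPM per kilobase for PRR9, 20.3 for SPRR1B, 9.04 for SPRR3 and 8.03 for IVL. SPRR1A followed with 2.54, SPRR2A with 2.31 and SPRR2D with 0.315. The GENCODE 29 model of SPRR1A is short, with 221 windows of 50 bases against 571 for SPRR1B, and its place here depends on that length. In DMSO ALDH1+ the order differed: SPRR1B had 4.55 and IVL 3.66 CPM per kilobase, and PRR9 had 0.721 and SPRR3 0.259.

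**Figure D3:**
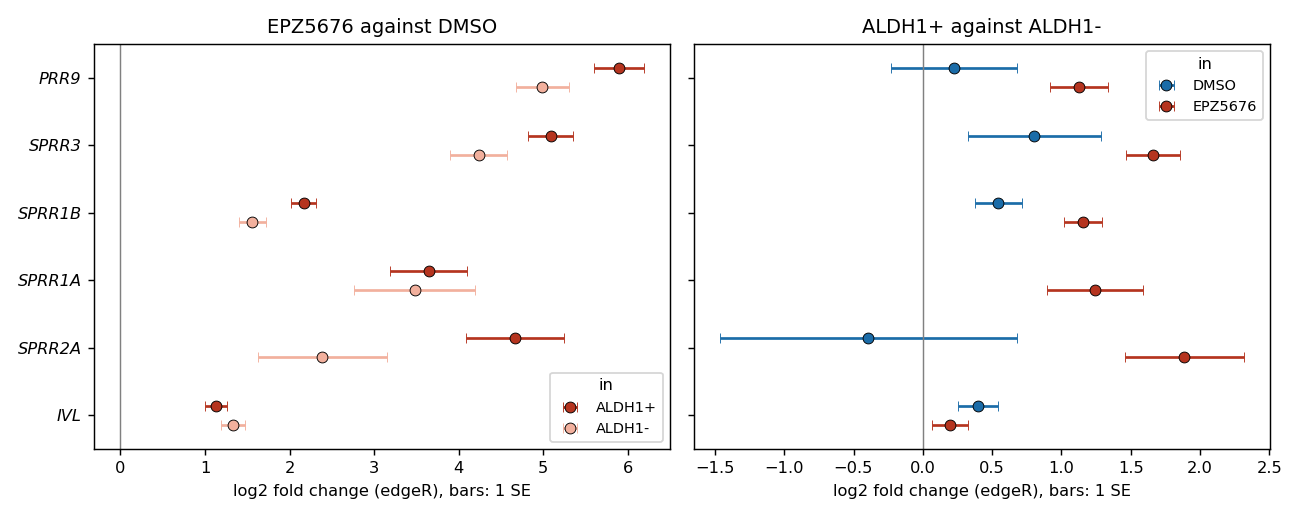
Fitted log2 fold changes (edgeR) of the 6 genes that could be fitted, with bars of 1 SE, for EPZ5676 against DMSO in each population (left) and ALDH1+ against ALDH1- in each arm (right). SPRR1A has no point for the populations in DMSO, where all libraries had at most 3 counts. In the right panel SPRR3 and SPRR1B under EPZ5676 lie at 1.66 and 1.15, and IVL lies at 0.19.

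The comparison of the sorted populations asks whether ALDH1+ and ALDH1- cells of the same arm differ. Under EPZ5676, edgeR's quasi-likelihood test with Benjamini-Hochberg adjustment called 3 of 16327 genes, 0.0184% of those tested, as higher in ALDH1+ and 0% as lower. The 3 genes were SPRR1B, SPRR3 and the mucosal keratin KRT13, and 1032 genes had an unadjusted p under 0.05. SPRR3 was 3.16-fold higher in ALDH1+ (log2 1.66, SE 0.20, adjusted p = 0.00467) and SPRR1B 2.22-fold higher (log2 1.15, SE 0.14, adjusted p = 0.00467). KRT13, which is no envelope precursor, stood at 18.8 ± 2.7 CPM in ALDH1+ and 8.73 ± 0.79 CPM in ALDH1- (log2 1.11, SE 0.14, adjusted p = 0.00557, n = 3). That these 2 envelope genes led this comparison was in part known when the 8 were chosen, so their p-values are not independent evidence.

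The other genes of the set pointed the same way under EPZ5676 without passing the edgeR test. PRR9 had a log2 difference of 1.13 (SE 0.21, adjusted p = 0.157), SPRR2A of 1.89 (SE 0.43, adjusted p = 0.343) and SPRR1A of 1.24 (SE 0.35, adjusted p = 0.500). In all 3 genes each ALDH1+ library lay above each ALDH1- library, a separation that was not counted over all genes. IVL had 0.19 (SE 0.13, adjusted p = 0.849), with overlapping groups. Summed, SPRR1A and SPRR1B had 1.15 (SE 0.14, adjusted p = 0.00467) and the 7 SPRR2 rows 1.77 (SE 0.36, adjusted p = 0.206). SPRR1B held 1768 of the 1875 summed SPRR1 counts in EPZ5676 ALDH1+ and 441 of 465 in ALDH1-. The SPRR1 sum therefore repeats the result of SPRR1B and adds little on SPRR1A.

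The replicate numbers pair the libraries across groups, so ratios of libraries with the same number can be read. For SPRR2A, EPZ5676 ALDH1+ was 3.64, 3.57 and 3.68 times EPZ5676 ALDH1- in replicates 1, 2 and 3, although the levels of SPRR2A in ALDH1+ ranged from 0.876 to 2.26 CPM. The ratios were 3.38, 3.53 and 2.52 for SPRR3, 2.25, 2.67 and 1.79 for SPRR1B and 1.75, 2.68 and 2.38 for SPRR1A. For PRR9 they were 2.63, 2.66 and 1.37. IVL had 0.964, 1.06 and 1.46, on both sides of equal levels. With the replicate number as a block, edgeR called 31 of 16327 genes higher and 44 lower. Among them were 4 of the 6 genes: SPRR3 (adjusted p = 2.67e-05), SPRR1B (5.52e-05), PRR9 (log2 1.09, adjusted p = 0.00274) and SPRR2A (log2 1.84, adjusted p = 0.0252). DESeq2 without the block called 13 genes higher and 12 lower, with SPRR3 (adjusted p = 6.87e-12) and SPRR1B (8.64e-10) among them. It did not call PRR9 (0.291), SPRR2A (0.0974) or IVL (0.975), and gave SPRR1A no adjusted p.

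**Figure D4:**
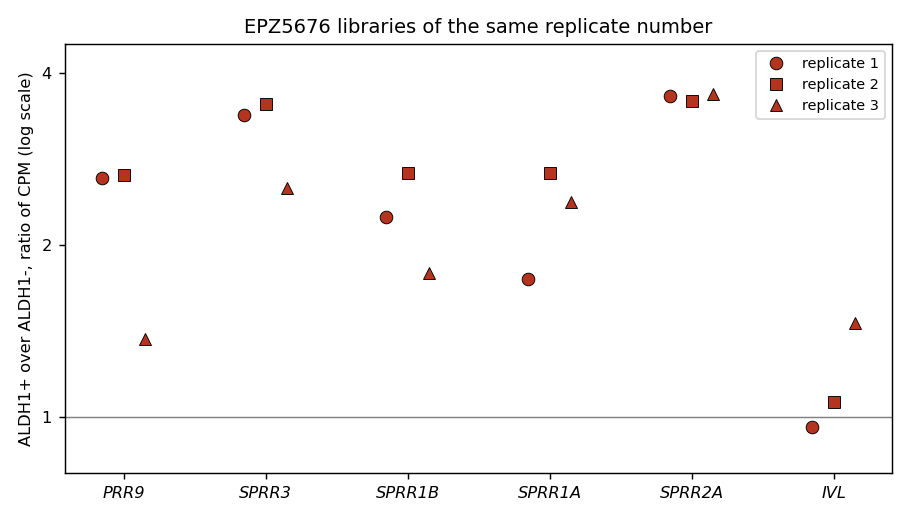
Ratio of the level in EPZ5676 ALDH1+ to that in EPZ5676 ALDH1- for libraries of the same replicate number, on a log axis. Each symbol is 1 pair, and the grey line marks equal levels. SPRR2A has 3 nearly equal ratios between 3.57 and 3.68, and IVL lies around the line.

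In the edgeR fit without the block, SPRR3, SPRR1B and KRT13 lost their calls when either replicate 2 library of the EPZ5676 arm was left out. Without EPZ5676 ALDH1+ replicate 2, the deepest library, the adjusted p was 0.0532 for SPRR3 and SPRR1B and 0.0680 for KRT13. Without EPZ5676 ALDH1- replicate 2 it was 0.0612 for all 3. The log2 differences in those 2 fits were 1.46 and 1.74 for SPRR3 and 1.10 and 1.07 for SPRR1B. PRR9 passed when EPZ5676 ALDH1+ replicate 3 was left out (log2 1.33, adjusted p = 0.0101). That library was the lowest of the 3 for PRR9, SPRR3, SPRR1B, SPRR1A, SPRR2A and SPRR2D and the highest for IVL.

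In DMSO, the comparison of ALDH1+ with ALDH1- gave 0 calls among 16327 genes with edgeR, 0% in either direction. Unadjusted p was under 0.05 for 2904 genes, DESeq2 called 137 higher and 146 lower, the blocked edgeR fit 564 and 820, and edgeR without a filter 538 and 410. SPRR1B was 0.55 (SE 0.17, adjusted p = 0.171) higher in ALDH1+ on the log2 scale, in 3 of 3 same-number pairs with ratios of 1.45, 1.43 and 1.55, and it passed with the replicate block (log2 0.56, adjusted p = 0.0339). IVL had a difference of 0.40 (SE 0.14, adjusted p = 0.190) and SPRR3 of 0.81 (SE 0.48, adjusted p = 0.391). PRR9 had 0.23 (SE 0.46, adjusted p = 0.834), with a sign that turned to -0.23 without DMSO ALDH1+ replicate 2 and -0.01 without DMSO ALDH1- replicate 1. SPRR2A had -0.39 (SE 1.07, adjusted p = 0.886), and 0.02 and 0.26 without DMSO ALDH1+ replicate 1 and DMSO ALDH1- replicate 3. For SPRR1A, with at most 3 counts per library, no ratio is given.

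Whether the treatment difference itself was unequal in the populations was tested by the interaction. EdgeR called 0 of 16327 genes, 0% in either direction, with 597 at an unadjusted p under 0.05, and DESeq2 and the blocked edgeR fit also called 0. The treatment difference in ALDH1+ exceeded that in ALDH1- by 0.61 for SPRR1B (SE 0.22), 0.86 for SPRR3 (SE 0.55), 0.90 for PRR9 (SE 0.51) and 2.28 for SPRR2A (SE 1.22) on the log2 scale. For IVL it was smaller, by -0.21 (SE 0.19). The adjusted p was 0.979 for each of these 5 genes. A larger response of the SPRR genes in ALDH1+ is thus not shown by this test.

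The wider epidermal differentiation complex did not move as a block. Of 49 other genes of the complex found in the table, 18 had 0 counts in every library and 16 could be tested. In ALDH1+, 10 of the 16 rose with EPZ5676 and 4 fell, beside 17.8% and 13.7% of all genes, with a median log2 difference of 0.58 against -0.01 over all genes. In ALDH1-, 9 rose and 2 fell, beside 13.6% and 9.04% of all genes, with a median of 0.69 against -0.02. LORICRIN, the main structural protein of the epidermal envelope, had 0 counts. The largest rises, taken where edgeR's average log2 CPM was 1 or more, were those of S100A8, a calcium-binding alarmin (1.94 in ALDH1+ and 1.90 in ALDH1-), TCHHL1, a trichohyalin-like gene (1.85 and 2.19), and FLG, which encodes filaggrin (1.72 and 1.39). S100A3 fell, by 1.14 in ALDH1+ and 0.74 in ALDH1-. S100A2 and S100A4 fell in ALDH1+, by 0.51 and 0.43, with overlapping groups. S100A2 lost its call in a fit of the compared groups alone (adjusted p = 0.0763), without DMSO ALDH1+ replicate 3 (log2 -0.24, adjusted p = 0.244) and without EPZ5676 ALDH1+ replicate 1 (0.137), and S100A4 without the same libraries (0.105 and 0.0903). In ALDH1- they had -0.25 (adjusted p = 0.342) and -0.36 (adjusted p = 0.0582, 0.00545 with the replicate block and 0.0394 with DESeq2). These are edgeR log2 differences with SEs of 0.12 to 0.25.

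Along the chromosome the response was patchy. RefSeq orders 63 protein-coding genes from S100A10 to S100A1, of which 8 are the genes described here. The late cornified envelope genes between FLG and IVL could not be fitted, IVL, the SPRR genes and PRR9 lay in the middle, and the S100 genes beyond them included both directions. Of the 20 other genes of this stretch that could be fitted, 10 rose and 6 fell in ALDH1+, and 9 rose and 4 fell in ALDH1-, against 17.8% and 13.7%, and 13.6% and 9.04%, of all genes. S100A7A, which was not on the list above and is named after its values were seen, fell most along this stretch, by 1.89 (SE 0.28, adjusted p = 1.47e-04) in ALDH1+ and 1.36 (SE 0.30, adjusted p = 0.00416) in ALDH1- with edgeR.

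**Figure D5:**
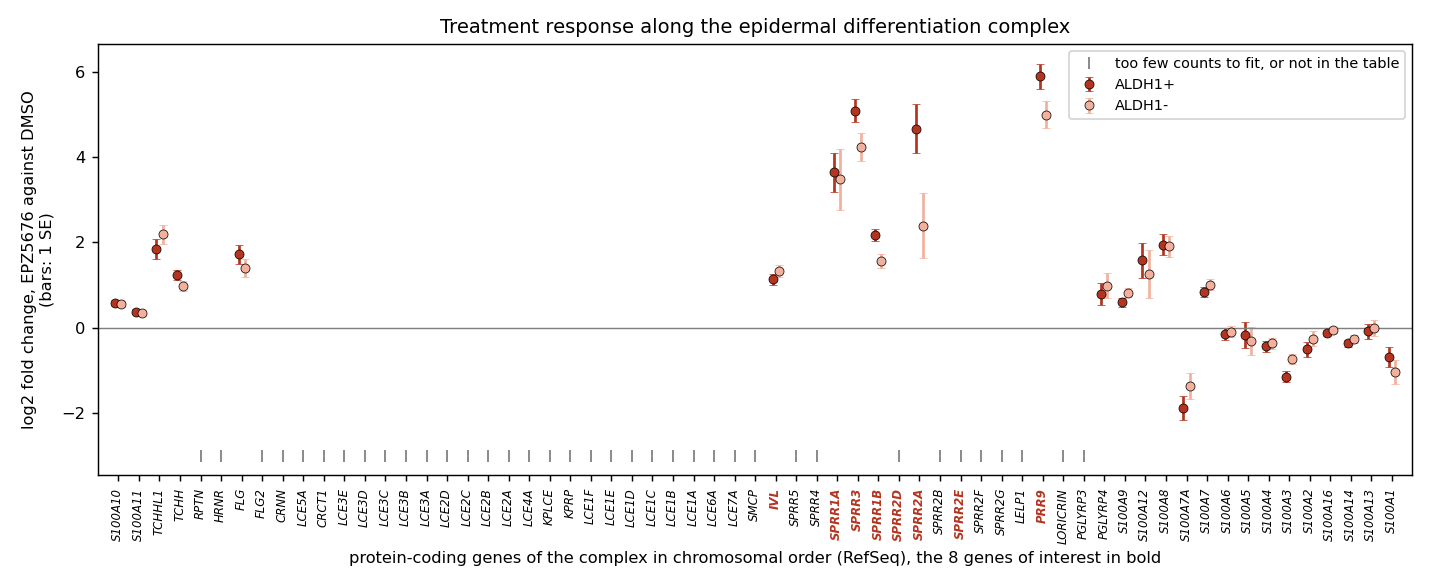
Log2 fold change with EPZ5676 in ALDH1+ (dark) and ALDH1- (light), with bars of 1 SE, for the 63 protein-coding genes of the epidermal differentiation complex in chromosomal order, evenly spaced. Ticks at the bottom mark genes with too few counts to fit or not in the table. PRR9, SPRR3 and SPRR2A reach 5.89, 5.09 and 4.67 in ALDH1+, and genes such as S100A3 lie below 0.

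Enzymes and partners that build the envelope were also examined, as 35 testable genes of a list of 43. In ALDH1+, 17 rose and 5 fell, beside 17.8% and 13.7% of all genes (median 0.37 against -0.01 over all genes). In ALDH1-, 15 rose and 4 fell, beside 13.6% and 9.04% (median 0.46 against -0.02). TGM1, the keratinocyte transglutaminase that cross-links SPRR proteins and involucrin, stood at 8.29 ± 1.1 CPM in DMSO ALDH1+ and 15.7 ± 2.4 CPM in EPZ5676 ALDH1+ (log2 0.94, SE 0.14, adjusted p = 1.48e-04, n = 3). In ALDH1- it went from 7.15 ± 0.42 to 10.96 ± 1.7 CPM (log2 0.62, SE 0.15, adjusted p = 0.00702, edgeR). TGM2, the widely expressed tissue transglutaminase, rose by 4.09 (SE 0.30) in ALDH1+ and 3.33 (SE 0.29) in ALDH1-. The membrane protease TMPRSS11E rose by 3.52 and 3.46, and CDSN, which encodes the junction protein corneodesmosin, rose by 3.18 in ALDH1+ and had 1.21 (adjusted p = 0.0730, 0.00583 with the replicate block) in ALDH1-.

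Other genes of this list fell. CASP14, a protease of the cornified layer, fell by 1.46 in ALDH1+ and by 1.47 in ALDH1-, from 665 ± 64 to 242 ± 31 CPM in ALDH1+ (n = 3). PI3, which encodes the envelope-bound elastase inhibitor elafin, fell by 1.38 and 0.96, and the suprabasal keratin KRT10 by 0.58 and 0.62, with overlapping groups in ALDH1+. The KRT10 call was lost in ALDH1+ without DMSO ALDH1+ replicate 2 (adjusted p = 0.0606) or EPZ5676 ALDH1+ replicate 1 (0.0502). In ALDH1- it was lost without DMSO ALDH1- replicate 2 (0.0701) or 3 (0.0554) or EPZ5676 ALDH1- replicate 1 (0.0540).

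Transcription factors of keratinocyte differentiation were split. Of 47 testable genes of a list of 48, 12 rose and 13 fell in ALDH1+, beside 17.8% and 13.7% of all genes, and 9 rose and 11 fell in ALDH1-, beside 13.6% and 9.04%, with medians of -0.08 and -0.10. PRDM1 (1.83 and 1.68), KLF4 (1.09 and 0.83) and the AP-1 subunit FOSL1 (1.06 and 0.79) rose in both populations, with overlapping groups for PRDM1 in each and for KLF4 in ALDH1-. In ALDH1- the 3 calls were lost with DESeq2 (adjusted p = 0.0531, 0.0519 and 0.0517 for PRDM1, KLF4 and FOSL1) and without any 1 of replicates 2 and 3 of DMSO ALDH1- and replicates 1 and 2 of EPZ5676 ALDH1- (0.0621 to 0.176). In ALDH1+ PRDM1 lost its call without DMSO ALDH1+ replicate 2 (0.0538) or 3 (0.0841) or EPZ5676 ALDH1+ replicate 1 (0.0874). Other AP-1 subunits on the list, such as FOS and JUN, were tested, and their values are not given here. GRHL3 fell by 1.41 and 1.42, ZNF750 by 1.14 and 1.10 and NOTCH3 by 0.80 and 1.12. TP63, the master factor of stratified epithelia, was low, at 1.58 ± 0.50 CPM in DMSO ALDH1+. It fell by 1.35 in ALDH1+, with adjusted p = 0.0567 without EPZ5676 ALDH1+ replicate 2, and had -0.78 (adjusted p = 0.123, 0.04999 with the replicate block) in ALDH1-. The EPZ5676 and DMSO groups overlapped for TP63 in both populations. DOT1L, the target of the inhibitor, had -0.11 (adjusted p = 0.413) and -0.25 (adjusted p = 0.0794, 0.0142 with the replicate block), and its transcript does not report on inhibition of the enzyme.

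Across the 12 libraries the 6 fitted genes varied together. Pearson's r of their log2 CPM lay between 0.80 (SPRR2A with IVL) and 0.99 (SPRR3 with PRR9). All libraries share the treatment contrast, so these values describe the 4 groups and carry no p. Genes outside the 8 whose log2 CPM closely resembled the mean profile were TMEM64 (r = 0.992), KRT13 (0.990), the long noncoding RNA LASTR (0.987), SMOC1 (0.985), STK39 (0.984), GCNT3 (0.984) and IL1RN (0.983). Among these, IL1RN, the interleukin-1 receptor antagonist, stood at 7.60 ± 0.98, 7.13 ± 0.56, 22.8 ± 3.6 and 13.7 ± 1.2 CPM (SD, n = 3) in ALDH1+ and ALDH1- of the DMSO arm and then of the EPZ5676 arm.

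Library totals ran from 24348594 to 80195050 counts. EPZ5676 ALDH1+ replicate 2 had 80195050 and DMSO ALDH1+ replicate 3 had 58004508, and the other 10 had at most 29368821. The 6 epithelial markers summed to 13823 to 17902 CPM per library. In ALDH1+, EPCAM, KRT8, KRT19 and CDH1 were called lower with EPZ5676, by 0.25 to 0.55 on the log2 scale, and EGFR higher, by 0.63, while in ALDH1- CDH1 alone was called, lower by 0.67. The hormone receptor gene PGR was at 0 in 3 groups. Group means of the receptor gene ESR1 ran from 7.39 CPM in EPZ5676 ALDH1+ to 10.3 CPM in DMSO ALDH1-. Those of ERBB2 ran from 37.6 to 65.0 CPM in the same groups. Of these 2 tested receptor genes, edgeR called 1 lower with EPZ5676 in each population, beside 13.7% of all genes in ALDH1+ and 9.04% in ALDH1-. The 5 fibroblast markers summed to 8.89 to 14.2 CPM in the DMSO and 18.6 to 25.1 CPM in the EPZ5676 libraries, nearly all of it COL1A1, with DCN at 0 in every library. The 5 leukocyte markers summed to 7.09 to 11.3 CPM in DMSO and 9.24 to 16.7 CPM in EPZ5676, nearly all of it CSF1R and CD14, with CD3E at or near 0. The 2 endothelial markers summed to 0.199 to 0.938 CPM. The part of these markers in the results above was not tested.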

How the data were processed

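RNA was sequenced from 12 libraries in 4 groups of 3. The authors deposited whole-number read counts per gene without normalization. Per the submitters' processing notes, Trim Galore, STAR and build hg19 were used. For the counting step, no program, strand setting or annotation is given in these sources. Identifiers were matched to symbols through GENCODE 29, and 51959 of 57783 had one. Counts were fitted in R 4.3.3 with edgeR 4.0.16: filterByExpr kept 16327 genes, TMM factors lay between 0.975 and 1.021, and 1 quasi-likelihood model held a term per group. P-values were adjusted by Benjamini-Hochberg over all genes tested, with calls below 0.05. Each SE was derived from the log2 difference and the F value. The common biological coefficient of variation was 9.58%. The script was tested on simulated counts.

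The genes described, the 3 lists of related genes and the rule for naming genes were chosen with earlier results of these data known. From each list, the rule named up to 3 called genes with the largest and 3 with the smallest log2 difference in ALDH1+ at an edgeR average log2 CPM of at least 1, and TGM1, TGM2, KLF4, TP63, FOSL1, GRHL3, ZNF750, LORICRIN, FLG and DOT1L in any case. It also named the 8 genes whose log2 CPM (prior count 2) correlated best with the mean of the z-scaled profiles, of which 1 is not reported here. Exact intervals for ratios of counts cover 95% and are conditional on the totals.

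Replicate numbers recur in all groups. Over 12354 genes, deviations from the group means correlated at 0.17 to 0.65 in the 18 pairs of libraries with the same number and at -0.66 to 0.22 between different numbers, so the numbers pair the libraries. The model without the block is the main one, since no stated method uses it. Alternatives were median-ratio scaling, library totals without scaling factors, no filter, at least 1 CPM in 3 libraries, DESeq2 1.42.0, the replicate block, a fit of the compared groups alone, and fits without each library in turn.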

Additional observations from a re-analysis of the deposited data

How the results depend on the processing

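Of 1704 values of single genes under the alternatives, 1630 counted as unchanged, 35 lost and 26 gained a call, 11 changed sign and 2 low values moved. Unchanged values kept their direction and side of the threshold. For the EPZ5676 differences of the genes described here, no threshold was used. There, a value counted as moved if it kept its direction but shifted by at least the pooled within-group SD of log2 CPM. ALDH1+ against ALDH1- under EPZ5676 depended most on the settings. Of the 8 genes, 2 were called, against 4 without a filter, 4 with the replicate block and 0 to 3 when 1 library was left out. Of the other genes of the lists, 1 was called (KRT13), against 17 without a filter, 3 with DESeq2, 8 with the replicate block and 0 to 2 with a library left out. Over all genes the main fit called 3, and 75 with the block, 25 with DESeq2 and 235 without a filter, which tested 33418 genes. Leaving out a library gave from 0 (without EPZ5676 ALDH1+ replicate 2 or EPZ5676 ALDH1- replicate 2) to 21 (without EPZ5676 ALDH1- replicate 3). In DMSO the same comparison called 0 genes, and 948 without a filter, 283 with DESeq2 and 1384 with the block. Of the 8 genes it called 0, and 1 with the replicate block. Of the other list genes it called 0, against 19 without a filter, 6 with DESeq2 and 17 with the block. Between EPZ5676 and DMSO, the block changed no call of a named gene outside the 8, beside those given with the results. Between the populations, only the 8 genes and KRT13 were followed singly, and other named genes were not. Among those followed, the block changed only the calls given with the results, that of KRT13 in DMSO among them (log2 1.01, adjusted p = 0.00854). The block raised the genes called lower with EPZ5676 in ALDH1- from 1476 to 2423. The interaction, called for no gene by edgeR, was called for 37 without a filter. The cause was not tested.

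Sign changes touched only uncalled differences. With a library left out, ALDH1+ minus ALDH1- in DMSO ranged from -1.07 to 0.26 for SPRR2A and from -0.23 to 0.59 for PRR9. The interaction of SPRR1A, 0.17, was -0.0071 with DESeq2, -0.0481 with the replicate block and -0.22 to 0.64 with a library left out, and that of KRT13 ranged from -0.00448 to 0.26. Depth limits SPRR1A, SPRR2A, SPRR2D and SPRR2E, whose DMSO libraries hold at most 5 counts.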
